A study of Rattus norvegicus with 12 samples.

Results

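Dusp1 and 9 other immediate early genes were followed across the livers of 12 Sprague Dawley rats, 10 of the 13215 genes that the arrays named through a probe set with 1 gene symbol. Dusp1 was chosen by its low value in naproxen-fed livers, in the comparison of naproxen with control, and the other 9 (Dusp6, Fos, Jun, Junb, Egr1, Ier2, Ier3, Zfp36 and Klf6) were added to ask whether they follow it. The choice was made with earlier results of these data known. Each of the 10 had 1 probe set, so no choice between probe sets was needed, and the mean of each lay above 6.44 log2 units, the 95th percentile of 970 probe sets for olfactory and vomeronasal receptors, which the liver is not known to use. The control rats ate a diet without drug. The naproxen rats ate naproxen, which blocks prostaglandin synthesis through both cyclooxygenases, at 400 mg/kg of diet, and the NO-naproxen rats ate NO-naproxen, a naproxen derivative with a nitric oxide-donating group, at 550 mg/kg. Each diet was given for 7 days to 4 individually housed rats with free access to food. Liver RNA of each rat went onto 1 whole-transcript array. Neither the age and sex of the rats nor the hour of sampling is stated in the sources at hand. Whole liver was measured, so that fewer cells of a type and less RNA per cell cannot be told apart.

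Immediate early genes are transcribed within minutes of a stimulus such as a growth factor, a hormone, stress or injury, without new protein synthesis. MAP kinases and cyclic AMP act on factors already bound at their promoters, among them serum response factor at the CArG box and CREB at the cyclic AMP response element, CRE. Their products include the transcription factors Fos, Jun, Junb and Egr1, and also brakes on the same signals: Dusp1 and Dusp6 are phosphatases that switch MAP kinases off, and Zfp36 binds AU-rich messenger RNAs and speeds their decay. In the liver these genes are known for their response to partial hepatectomy, feeding, glucocorticoids and handling.

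The promoter table held 7 of the 10 genes: Dusp1, Dusp6, Junb, Egr1, Ier2, Zfp36 and Klf6. The 250 bases before the start of 4 of them are shown because these genes carry the comparisons below. Dusp1 and Ier2 are shown as the 2 genes whose window held a full CRE, and Klf6 and Zfp36 as a pair whose levels varied together among rats of 1 diet. They are from RefSeq, build GRCr8, and lie at chr10:17184603-17184852 (plus strand, Dusp1), chr19:40399123-40399372 (plus strand, Ier2), chr17:69458479-69458728 (minus strand, Klf6) and chr1:92799109-92799358 (minus strand, Zfp36), each read 5′ to 3′. The windows and the motifs were chosen after sequences and values were seen. Capitals mark a CRE (TGACGTCA), a CArG box, an AP-1 site (TGANTCA), an EGR site (GCGNGGGCG) or a TATA box (TATAAA), searched on both strands.
Dusp1: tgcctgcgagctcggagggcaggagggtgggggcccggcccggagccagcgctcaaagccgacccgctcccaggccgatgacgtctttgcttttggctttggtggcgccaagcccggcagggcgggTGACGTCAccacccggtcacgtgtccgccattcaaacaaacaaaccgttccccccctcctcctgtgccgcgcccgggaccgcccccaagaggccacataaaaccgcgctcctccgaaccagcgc
Ier2: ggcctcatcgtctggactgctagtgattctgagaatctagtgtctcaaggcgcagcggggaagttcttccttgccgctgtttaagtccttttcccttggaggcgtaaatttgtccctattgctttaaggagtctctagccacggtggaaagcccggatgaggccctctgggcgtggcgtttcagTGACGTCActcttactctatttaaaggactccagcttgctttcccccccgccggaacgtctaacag
Klf6: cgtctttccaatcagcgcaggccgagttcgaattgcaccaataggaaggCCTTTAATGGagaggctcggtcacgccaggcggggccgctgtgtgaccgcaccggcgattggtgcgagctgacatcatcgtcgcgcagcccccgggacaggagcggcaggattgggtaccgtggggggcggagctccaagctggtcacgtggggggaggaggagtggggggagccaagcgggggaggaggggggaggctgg
Zfp36: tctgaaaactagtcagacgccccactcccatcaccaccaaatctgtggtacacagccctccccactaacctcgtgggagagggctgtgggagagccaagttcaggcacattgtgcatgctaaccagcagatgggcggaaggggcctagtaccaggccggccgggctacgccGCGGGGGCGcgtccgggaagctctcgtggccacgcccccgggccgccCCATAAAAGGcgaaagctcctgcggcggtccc
Counted from the start, the CRE stood at -124 in Dusp1 and at -66 in Ier2. Of the 33469 windows of this length in the table, 1.59% held a CRE and 1.50% a CArG box. A CArG box was found in Klf6, Zfp36 and Egr1, the last with 2, and an EGR site in Zfp36, as in 4.29% of all windows. The shorter TGACG, which every CRE contains on both strands, was found in Dusp1, Junb, Egr1 and Ier2 and in 18.2% of all windows. A TATA box was found in Junb, as in 12.9% of windows, and an AP-1 site in none of the 7, against 6.34% of windows. These matches describe letters only.

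Dusp1 was lower in the livers of both drug groups than in controls, and no array of either drug group reached the lowest control. Its intensity was 2261, 2342, 1834 and 2630 in the 4 controls. With naproxen it was 975, 484, 838 and 1309, and with NO-naproxen 867, 1384, 625 and 706. The highest drug-fed value, 1384, belonged to NO-naproxen replicate 2 and the lowest, 484, to naproxen replicate 2. On the log2 scale, taken after adding 16 to each intensity, Dusp1 measured 11.14 ± 0.22 in controls, 9.76 ± 0.59 on naproxen and 9.76 ± 0.50 on NO-naproxen (SD over 4 rats). The naproxen value, which chose the gene, lay 2.62-fold below control, a log2 fold change of -1.39 ± 0.28 (SE), and is given as a description only. With NO-naproxen, whose comparison shares the 4 control arrays, it lay 2.60-fold below, at -1.38 ± 0.28 with a 95% interval of -1.98 to -0.78. That difference did not pass limma's test after Benjamini-Hochberg adjustment over all 19418 probe sets (adjusted p = 0.468). That was also the smallest adjusted p of any probe set in that comparison. Many probe sets shared it, Egr1 and Klf6 among them, so it does not set Dusp1 first. In controls the SDs of Dusp1 and Dusp6 among the 4 rats were 0.22 and 0.61 log2 units. That of Dusp6 rested largely on control replicate 1, at 643 against 1341, 1524 and 1652, and the difference in spread was not tested.

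**Figure D1:**
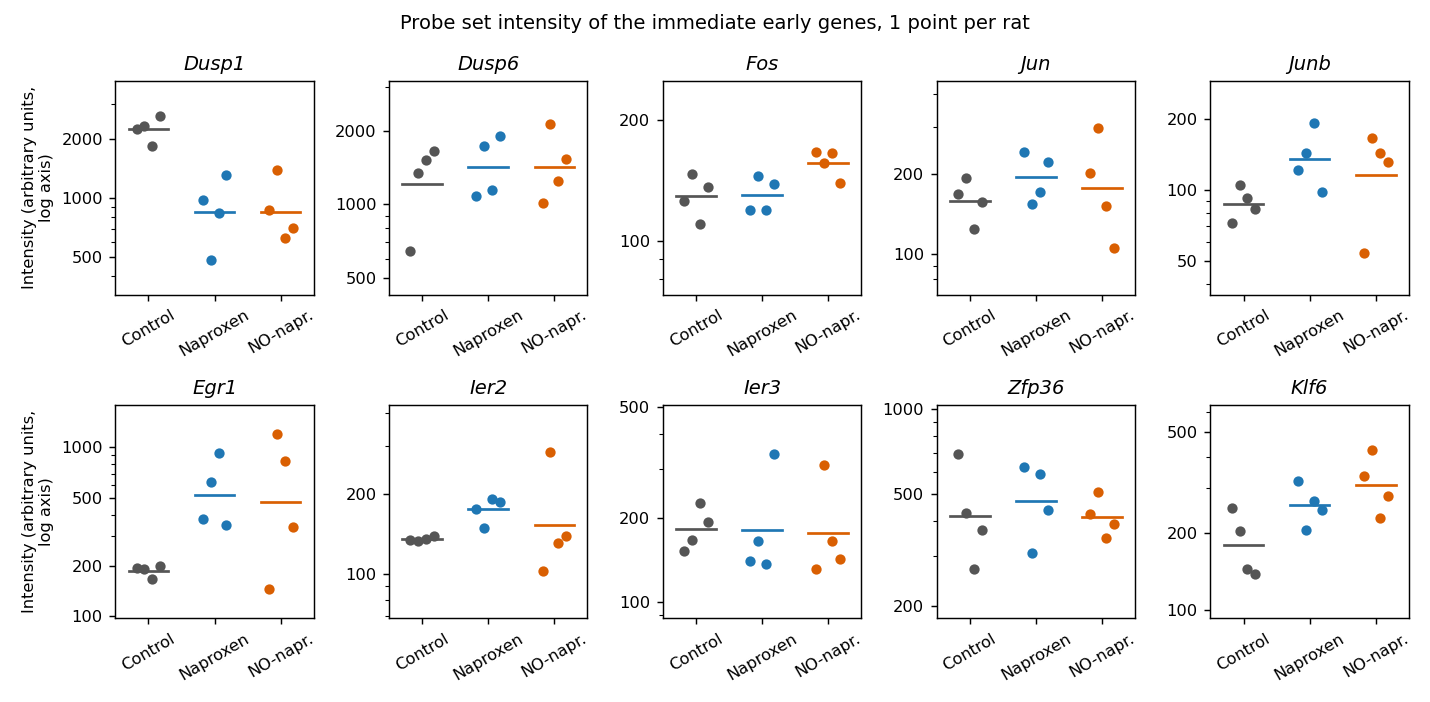
Probe set intensity (vertical, arbitrary units on a log axis) of each of the 10 genes by diet, 1 point per rat, with a bar at the mean on the log2(intensity + 16) scale, n = 4 per diet. The Dusp1 points of both drug diets lie below all 4 controls, and the Egr1 points of 7 of the 8 drug-fed rats lie above all 4 controls.

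Egr1, a zinc finger transcription factor, went the other way. Its intensity varied little in controls, at 193, 191, 166 and 198. With naproxen it was 377, 624, 925 and 345, and with NO-naproxen 146, 1193, 832 and 340. All 4 naproxen arrays and 3 of the 4 NO-naproxen arrays lay above every control, while NO-naproxen replicate 1 lay below them all. The log2 level was 7.66 ± 0.10 in controls, 9.08 ± 0.64 in the naproxen group and 8.95 ± 1.30 in the NO-naproxen group (SD, n = 4), so that the rats of the drug groups differed far more among themselves than the controls did. The log2 fold change was 1.41 ± 0.47 (SE) with naproxen, as a description, and 1.28 ± 0.47 with NO-naproxen, where limma's adjusted p was 0.468. Without NO-naproxen replicate 2 the latter was 0.85, and Egr1 no longer met the criterion of the study, which asks for 1.5-fold or more with p below 0.05 before adjustment.

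The AP-1 subunits Fos, Jun and Junb, which pair into dimers on AP-1 sites, did not share the low values of Dusp1. Junb measured 72.3, 105, 92.2 and 82.8 in controls, 121, 143, 193 and 98.2 with naproxen and 53.9, 166, 143 and 131 with NO-naproxen. NO-naproxen replicate 1 gave the lowest Junb value of all 12 arrays, and the diets overlapped. Its log2 fold change was 0.55 ± 0.27 (SE) with naproxen and 0.34 ± 0.27 with NO-naproxen. The latter was 0.65 without NO-naproxen replicate 1, where Junb met the study's criterion, and 0.19 without replicate 2. Jun lay between 124 and 193 in controls, between 154 and 240 with naproxen and between 105 and 297 with NO-naproxen, so its NO-naproxen range enclosed both others. The log2 fold changes of Jun were 0.27 ± 0.25 and 0.15 ± 0.25. Fos was the steadiest of the 3: it lay between 110 and 147 in controls, 119 and 145 with naproxen and 139 and 167 with NO-naproxen. Its log2 fold change was 0.010 ± 0.15 with naproxen, with a 95% interval of -0.31 to 0.33, and 0.25 ± 0.15 with NO-naproxen. For Fos, Jun and Junb limma's adjusted p with NO-naproxen was 0.485, 0.783 and 0.546.

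Klf6, a Krüppel-like transcription factor, measured higher with both drugs. Its intensity was 252, 204, 144 and 139 in controls, 321, 207, 267 and 247 with naproxen, and 335, 426, 229 and 280 with NO-naproxen. The drug groups overlapped the controls through control replicate 1 at 252. The log2 fold change was 0.48 ± 0.22 (SE) with naproxen and 0.74 ± 0.22 with NO-naproxen, whose 95% interval was 0.26 to 1.21 (limma, adjusted p = 0.468). Control arrays had a narrower signal distribution: the interquartile range over all probe sets averaged 2.10 ± 0.19 log2 units on them, 2.34 ± 0.16 on naproxen arrays and 2.36 ± 0.23 on NO-naproxen arrays (SD over 4 rats). With that spread as a covariate the Klf6 values were 0.15 and 0.38, and when the 2 narrowest arrays, control replicates 3 and 4, were left out they were 0.17 and 0.42. The Dusp1 values were then -1.65 and -1.67 with the covariate, and -1.42 and -1.41 without those arrays. Those of Egr1 were 1.38 and 1.25 with the covariate, and 1.38 and 1.24 without those arrays. The part of the spread in these results was not tested further.

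Ier2, a small nuclear protein of the immediate early response, was nearly constant in controls, at 134, 134, 135 and 139. Naproxen arrays read 175, 149, 191 and 186, all above the controls, and NO-naproxen arrays 103, 286, 131 and 139, which lay on both sides of them. The log2 fold changes were 0.33 ± 0.23 (SE) and 0.16 ± 0.23. Ier3, a stress-inducible gene that modulates ERK signalling and apoptosis, lay between 152 and 226 in controls, 137 and 339 with naproxen and 131 and 309 with NO-naproxen. Its log2 fold changes were -0.0068 ± 0.28 and -0.045 ± 0.28. Its sign changed in 11 of the 21 alternatives with naproxen, and several of the 21 cannot change a fold change. The 2 high values, 339 and 309, came from naproxen replicate 4 and NO-naproxen replicate 2.

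Of the other brakes on signalling, Zfp36 lay between 272 and 690 in controls, 309 and 624 with naproxen and 349 and 507 with NO-naproxen. Its log2 fold changes were 0.17 ± 0.26 and -0.010 ± 0.26 (SE), with control replicate 1 the highest of all 12 arrays. Dusp6, a phosphatase that acts mainly on ERK, did not share the low Dusp1 values. It measured 643, 1341, 1524 and 1652 in controls, 1085, 1727, 1143 and 1896 with naproxen and 1014, 2125, 1246 and 1533 with NO-naproxen. The lowest Dusp6 value was that of control replicate 1, and the diets overlapped. The log2 fold changes were 0.22 ± 0.30 with naproxen (95% interval -0.41 to 0.85) and 0.23 ± 0.30 with NO-naproxen (-0.40 to 0.86). Limma's adjusted p with NO-naproxen was 0.712 for Dusp6, 0.74 for Ier2, 0.945 for Ier3 and 0.986 for Zfp36.

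**Figure D2:**
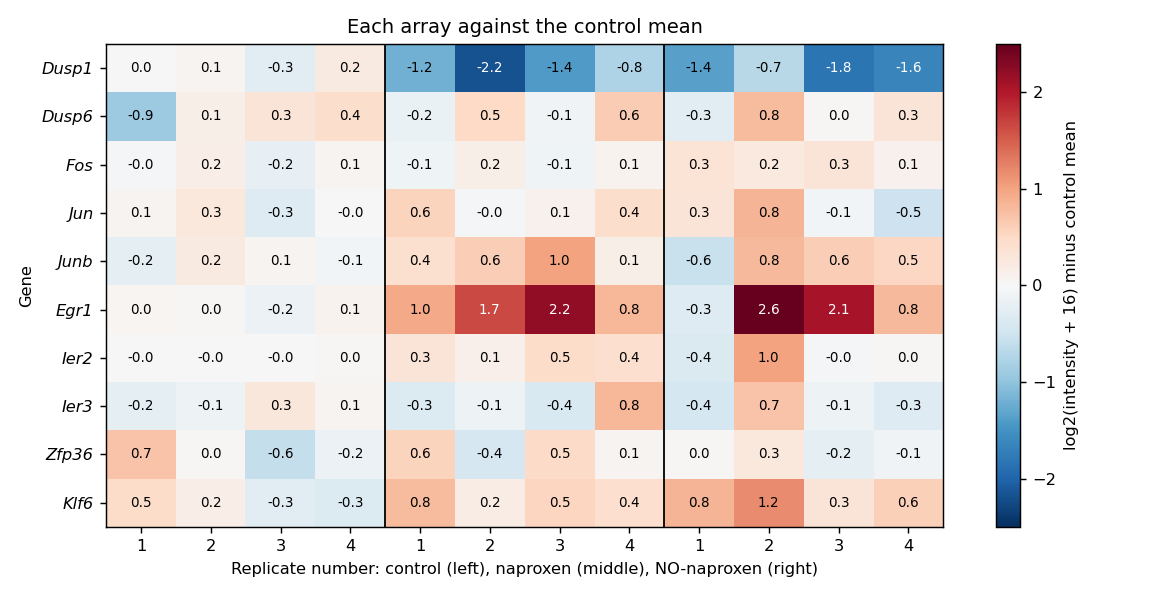
Each array (columns, by diet and replicate number) against the control mean for each gene (rows), as log2(intensity + 16) minus the mean of the 4 controls. All 8 drug-fed arrays are below 0 for Dusp1, and NO-naproxen replicate 2 holds the highest value of its diet for 9 of the 10 genes.

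Single rats held the highest or lowest value of their diet for several genes at once. In each diet some rat must be highest and some lowest for every gene, so such counts alone do not set a rat apart. Dixon's test for an outlying array, run on the 10 genes within each diet (30 groups), found 0. How often each array was highest or lowest over all probe sets was not tested. NO-naproxen replicate 2 gave the highest value within its diet for 9 of the 10 genes, all but Fos, and it was also the array with the widest signal spread, 2.62 log2 units. NO-naproxen replicate 1 gave the lowest within its diet for 5 of the 10, as did naproxen replicate 2 and control replicate 3. Averaged over the 10 genes as deviations from each gene's mean over all arrays, the arrays ran from -0.30 in NO-naproxen replicate 1 to 0.65 in NO-naproxen replicate 2, with both ends in the same diet.

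Counted over the 10 genes, 8 had a log2 fold change above 0 with naproxen and 7 with NO-naproxen, with medians of 0.24 and 0.19. Over all probe sets the medians were -0.034 and 0.00044, with 45.9% and 50.1% above 0. No probe set passed the adjusted threshold of 0.05 in either comparison, 0% of all, while 2458 and 2011 had an unadjusted p under 0.05. By the study's criterion Egr1 was higher with naproxen (1 of 10, against 0.875% of all probe sets) and Dusp1 lower (1 of 10, against 4.97%). The arrays of naproxen and control did not overlap for Egr1 and Ier2 on the higher side (2 of 10, against 2.09%) and for Dusp1 on the lower side (1 of 10, against 2.40%). These naproxen counts come from the contrast that chose Dusp1. With NO-naproxen, Egr1 and Klf6 were higher by the criterion (2 of 10, against 1.78%) and Dusp1 lower (1 of 10, against 2.02%). No gene of the 10 lay wholly above its controls with NO-naproxen (0 of 10, against 2.0%), and Dusp1 lay wholly below (1 of 10, against 1.35%). The NO-naproxen counts of Dusp1 use the controls against which it was chosen, so they are not independent of that choice. All 10 genes were chosen with earlier results of these data known, which limits every comparison with these shares. With NO-naproxen, Dusp1 met the criterion in all 20 alternative fits, which share the control arrays that took part in choosing it. Egr1 passed it in 20 of 20 with naproxen and in 17 of 20 with NO-naproxen, and Klf6 in 2 and 18. With the 2 narrowest arrays left out, neither Egr1 nor Klf6 passed it with NO-naproxen. With naproxen, Junb, or Klf6, or both joined Egr1 after quantile normalization or median centring, or when naproxen replicate 4 or control replicate 1 or 2 was left out, for a count of 2 or 3 higher genes. The shares above are those of the main fit, and the shares of all probe sets in the alternative fits are not given.

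**Figure D3:**
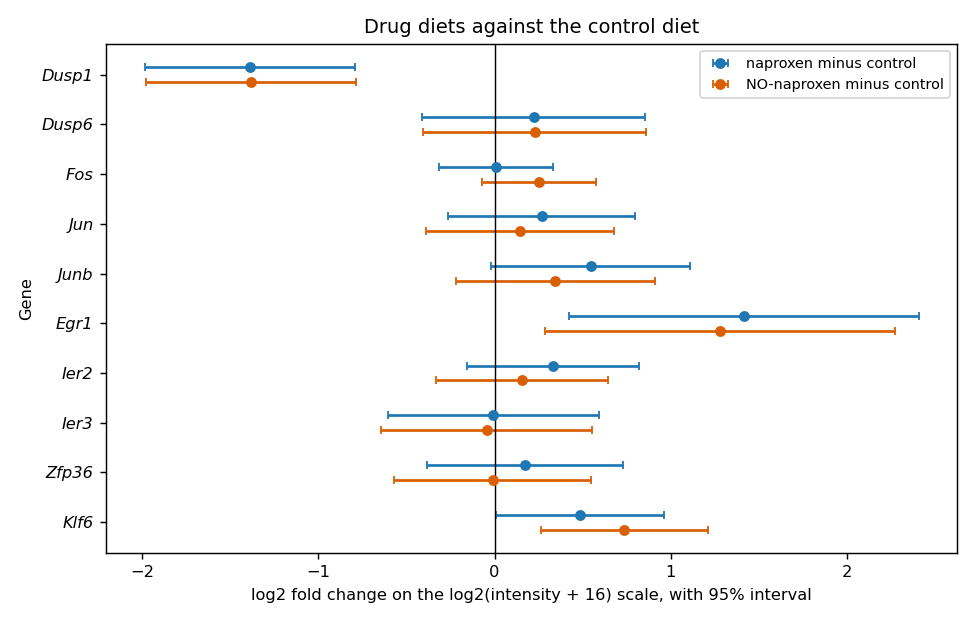
Log2 fold change of each gene against control (horizontal, on the log2(intensity + 16) scale) with its 95% interval from the limma fit, for naproxen (blue) and NO-naproxen (orange), n = 4 per diet. The Dusp1 estimates of both drugs lie near -1.4, and those of Egr1 lie above 0. The naproxen comparison chose Dusp1, so its naproxen estimate and interval are a description only. Its NO-naproxen interval lies below 0, and the estimates of both drugs share the same 4 controls.

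Between the 2 drugs, whose doses differed, the values stood close together. Dusp1 with NO-naproxen minus naproxen was 0.0074 log2 units, with a 95% interval of -0.59 to 0.60, an interval that holds both higher and lower values. Klf6 had a difference of 0.25 (-0.22 to 0.73), Fos of 0.24 (-0.083 to 0.56), Junb of -0.20 (-0.77 to 0.36) and Egr1 of -0.13 (-1.13 to 0.86). None of the 10 passed limma's test (adjusted p = 1.00 for each, 0% of all probe sets called). None met the study's criterion in this comparison, where 0.427% of all probe sets did on the higher side and 0.144% on the lower.

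Whether the other genes followed Dusp1 from rat to rat was tested on the deviations of each array from its own diet mean, which do not use the difference between diets. Of the 9 genes, 8 had a positive Pearson's r with Dusp1, with a median of 0.53 over 12 arrays, and none passed a 2-sided exact permutation test within diets after Benjamini-Hochberg adjustment over the 9. Jun came nearest, with r = 0.77 and Spearman's rho = 0.80 (exact permutation p = 0.00767 and 0.00854, adjusted p = 0.069 and 0.0768). Without the 2 arrays of farthest Dusp1 deviation, the replicates numbered 2 of both drug groups, Jun had r = 0.56, and with the arrays' spread removed it had r = 0.69. Ier2, Klf6, Ier3 and Zfp36 had r = 0.63, 0.58, 0.57 and 0.53, with rho = 0.64, 0.51, 0.31 and 0.45 (exact permutation adjusted p of r = 0.148, 0.148, 0.307 and 0.148, and of rho = 0.249, 0.346, 0.594 and 0.359). Without those 2 arrays these 4 values of r were -0.36, 0.16, 0.39 and 0.086, all lower than with every array, where leaving out the extremes also narrows the range of Dusp1. With only naproxen replicate 2 left out, Ier2, Klf6 and Zfp36 had 0.66, 0.50 and 0.28, and with only NO-naproxen replicate 2 left out 0.33, 0.40 and 0.49. Dusp6, Egr1, Fos and Junb had r = 0.20, 0.013, 0.013 and -0.13 and rho = 0.34, -0.12, 0.13 and -0.18 (exact permutation adjusted p of r = 0.794, 0.981, 0.981 and 0.972, and of rho = 0.566, 0.768, 0.768 and 0.768). Without those 2 arrays r was 0.20, -0.65, 0.66 and -0.73 for these 4.

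Among all 45 pairs of the 10 genes, 3 passed the same test, adjusted over the 45. Zfp36 and Klf6 had r = 0.86 and rho = 0.87 (exact permutation adjusted p = 0.00651 and 0.0179). Junb and Egr1 had r = 0.88 and rho = 0.78 (exact permutation adjusted p = 0.0271 and 0.112). The pair of Dusp6 and Ier3 had r = 0.71 and rho = 0.83 (exact permutation adjusted p = 0.0271 and 0.0179). Without the 2 arrays farthest from the median of the first gene, r was 0.81, 0.66 and 0.81, and with the arrays' spread removed 0.84, 0.88 and 0.71. The test passed for Zfp36 and Klf6 in 15 of 19 alternatives (adjusted p up to 0.304), for Junb and Egr1 in 7 and for Dusp6 and Ier3 in 6. No pair passed after quantile normalization, with the spread removed or without control replicate 1, and 1 pair passed without NO-naproxen replicate 1, 2 or 3 or without any 1 of the 4 naproxen arrays. In none of the 3 pairs did Dusp1 take part.

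**Figure D4:**
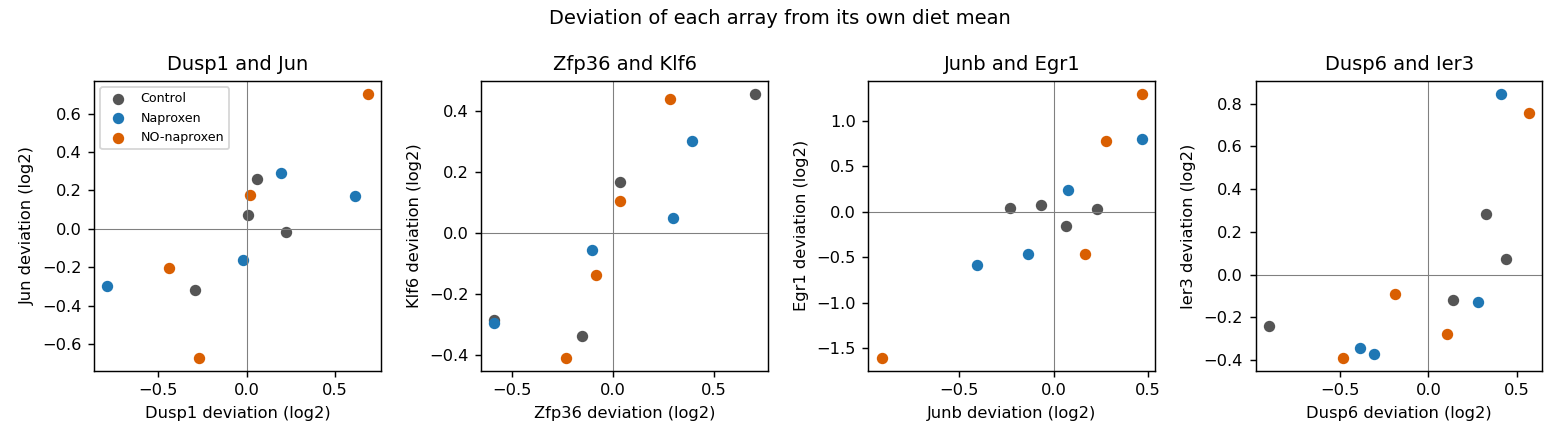
Deviation of each array from its own diet mean in log2 units for 4 pairs of genes, 1 point per rat, coloured by diet, n = 12. Dusp1 and Jun (r = 0.77) did not pass the adjusted test, and Zfp36 with Klf6 (r = 0.86), Junb with Egr1 (r = 0.88) and Dusp6 with Ier3 (r = 0.71) did.

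The genes with a pattern most like that of Dusp1 over all arrays were none of the other 9. Ranked by Pearson's r with Dusp1 over all 12 arrays, as a description that includes the difference between diets, the first 10 of 9832 genes above the olfactory receptor bound were Rrp9 (0.93), Nceh1 (0.90), Slc25a25 (0.89), Csad (0.86), Rell2 (0.85), Gpd1 (0.82), Rtn4rl2 (0.82), Sgk1 (0.82), Ppp1r3b (0.82) and Fdft1 (0.81). Slc25a25, a mitochondrial ATP-magnesium carrier, measured 10.74 ± 0.34 log2 units in controls, 9.56 ± 0.72 on naproxen and 9.72 ± 0.59 on NO-naproxen (SD over 4 rats). Csad, which makes the taurine precursor hypotaurine, had means of 10.38, 9.31 and 9.20 log2 units in the same order. Sgk1, a kinase induced by serum and glucocorticoids, measured 10.45 ± 0.54, 9.60 ± 0.43 and 9.71 ± 0.28. Nceh1, a cholesterol ester hydrolase, and Ppp1r3b, a glycogen-targeting phosphatase subunit, had r = 0.89 and 0.80 with Dusp1 within diets. The other 8 of these 10 had within-diet values of 0.77 (Slc25a25), 0.71 (Rrp9), 0.70 (Fdft1), 0.63 (Gpd1), 0.62 (Rtn4rl2), 0.58 (Sgk1), 0.56 (Csad) and 0.53 (Rell2). The r over all arrays includes the deviations within diets, so high within-diet values among these 10 follow in part from how they were chosen. Jun had 0.77 within diets, although its r over all arrays was 0.15. The share of all 9832 genes that reached this value within diets is not given. The most opposite were Aadat (-0.90), an aminotransferase of the kynurenine pathway, Maf1 (-0.86), a repressor of RNA polymerase III, Galt (-0.85), which converts galactose phosphate, Cytl1 (-0.84) and Efcab12 (-0.81). In this order the 9 other immediate early genes stood between rank 1607, Ier3 with r = 0.32, and rank 9589, Egr1 with r = -0.55. Zfp36, Jun, Ier2 and Dusp6 had r = 0.18, 0.15, 0.0034 and -0.10, and Fos, Klf6 and Junb -0.31, -0.37 and -0.47.

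Other immediate early transcription factors, of which 23 of 25 listed had a probe set, were 8 above 0 and 15 not with naproxen, with a median of -0.077. With NO-naproxen 10 were above 0 and the median was -0.048. None of the 23 met the study's criterion with either drug. Of all probe sets, 0.875% were higher and 4.97% lower by it with naproxen, and 1.78% and 2.02% with NO-naproxen. At such shares few calls among 23 genes would be looked for. Atf3, in the olfactory receptor range, measured -0.091 ± 0.25 and -0.23 ± 0.25 (log2 fold change with naproxen and NO-naproxen, SE), Myc -0.31 ± 0.27 and -0.20 ± 0.27, the nuclear receptor Nr4a1 -0.065 ± 0.23 and 0.049 ± 0.23, and Fosb -0.29 ± 0.23 and -0.046 ± 0.23. Among 25 measured immediate early signalling and RNA regulators, 10 were above 0 with each drug, with medians of -0.046 and -0.044, and none passed the adjusted test. Sgk1 and Slc25a25 met the criterion on the lower side with both drugs, and Per1, named here after its values were seen, on the higher side with NO-naproxen. That makes 2 of 25 lower with naproxen, against 4.97% of all probe sets, and 2 lower and 1 higher with NO-naproxen, against 2.02% and 1.78%. Sgk1 had log2 fold changes of -0.85 ± 0.26 and -0.74 ± 0.26, and Slc25a25 of -1.18 ± 0.33 and -1.01 ± 0.33. The growth arrest genes Gadd45b and Gadd45a measured -0.17 ± 0.18 and -0.28 ± 0.27 with naproxen and -0.061 ± 0.18 and -0.11 ± 0.27 with NO-naproxen, and Ier5, a relative of Ier2, 0.0058 ± 0.19 and -0.064 ± 0.19.

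No other measured phosphatase of the Dusp1 family had log2 fold changes as low as those of Dusp1. Of 7 measured, 5 were above 0 with each drug, with medians of 0.21 and 0.17. The lowest with both drugs was Dusp9, named after its values were seen, at -0.35 ± 0.19 with naproxen and -0.31 ± 0.19 with NO-naproxen (SE). By the criterion 0 of 7 were called with either drug. Over all probe sets it called 0.875% higher and 4.97% lower with naproxen, and 1.78% and 2.02% with NO-naproxen, so 0 of 7 lies near those shares. Dusp4, in the olfactory receptor range, measured 0.22 ± 0.16 and 0.17 ± 0.16 (log2 fold change with naproxen and NO-naproxen, SE), Dusp5 0.053 ± 0.23 and -0.24 ± 0.23, Dusp10 -0.017 ± 0.18 and 0.12 ± 0.18, and Dusp16 0.21 ± 0.23 and 0.33 ± 0.23. Feedback inhibitors of ERK and ETS-family targets, 7 measured, had medians of -0.012 and -0.13, with 3 and 1 above 0. Spry2, Spry1 and Spred1, which restrain the Ras pathway, measured -0.013 ± 0.18, -0.012 ± 0.24 and 0.30 ± 0.27 with naproxen and -0.14 ± 0.18, -0.13 ± 0.24 and 0.47 ± 0.27 with NO-naproxen, and the ETS factor Etv5 0.071 ± 0.20 and -0.029 ± 0.20. Il17rd, named after its values were seen, met the criterion on the lower side with naproxen at -0.62 ± 0.25 (1 of 7, against 4.97% of all probe sets). The kinases and factors of the MAP kinase cascade had medians of 0.078 and 0.21, with 16 and 17 of 19 above 0. Mapk14, the p38 kinase, measured 0.025 ± 0.18 and 0.19 ± 0.18, the JNK genes Mapk8 and Mapk9 0.31 ± 0.25 and 0.083 ± 0.18 with naproxen and 0.47 ± 0.25 and 0.31 ± 0.18 with NO-naproxen, and Map2k1 0.26 ± 0.22 and 0.31 ± 0.22. Creb1, named after its values were seen and within the olfactory receptor range, met the criterion on the higher side with both drugs, at 0.76 ± 0.23 and 0.78 ± 0.23 (1 of 19 in each, against 0.875% and 1.78% of all probe sets).

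Dusp1 is known as a target of glucocorticoids and of cyclic AMP, so 2 lists of liver genes with those responses were set beside it. Of 13 measured glucocorticoid-responsive genes, 10 were above 0 with each drug, with medians of 0.33 and 0.40 log2 units, while Sgk1, Tat and Hsd11b1 (named after its values were seen) lay below 0 with both. Dusp1, which is not in that list, also lay below. By the criterion, 3 were higher and 1 lower with naproxen (Fkbp5, Zbtb16 and Igfbp1 higher, Sgk1 lower) and 2 higher and 1 lower with NO-naproxen (Per1 and Zbtb16 higher, Sgk1 lower). Of all probe sets, 0.875% were higher and 4.97% lower by it with naproxen, and 1.78% and 2.02% with NO-naproxen. Zbtb16 and Igfbp1 were named after their values were seen. Zbtb16, a zinc finger repressor, had log2 fold changes of 1.86 ± 0.42 and 1.50 ± 0.42 (SE). Tsc22d3, known as GILZ, measured 0.33 ± 0.34 and 0.39 ± 0.34, the receptor cochaperone Fkbp5 0.84 ± 0.29 and 0.58 ± 0.29, tyrosine aminotransferase Tat -0.42 ± 0.19 and -0.041 ± 0.19, and the clock gene Per1 0.52 ± 0.41 and 1.01 ± 0.41. Of 11 cyclic AMP and fasting-responsive genes, 7 and 8 were above 0, with medians of 0.16 and 0.24. The coactivator Ppargc1a measured 1.09 ± 0.30 and 0.99 ± 0.30, and met the criterion with both drugs, as Igfbp1 did with naproxen. The gluconeogenic enzymes Pck1 and G6pc1 measured 0.17 ± 0.26 and -0.023 ± 0.20 with naproxen and 0.25 ± 0.26 and -0.072 ± 0.20 with NO-naproxen, and Irs2 0.53 ± 0.25 and 0.40 ± 0.25. No gene of any list passed the adjusted test. The lists share genes, among them Per1, Sgk1, Tat and Pck1.

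**Figure D5:**
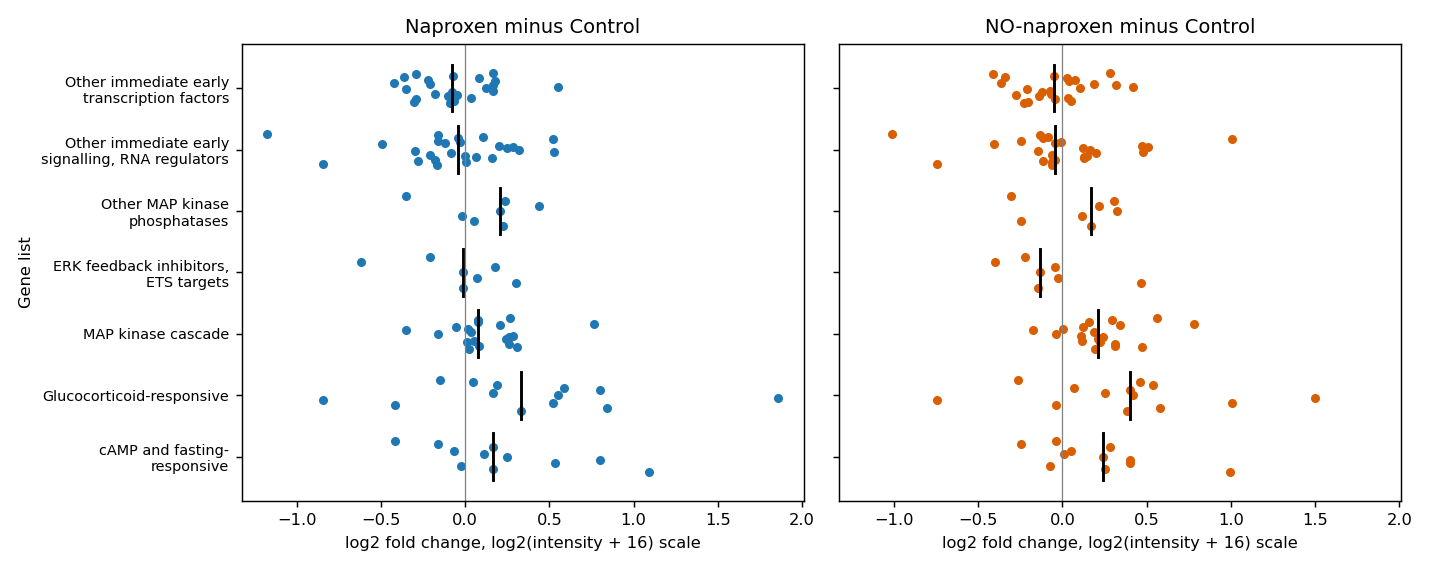
Log2 fold change (horizontal, on the log2(intensity + 16) scale) of each measured gene in 7 lists of related genes, for naproxen (left) and NO-naproxen (right) against control, with a black bar at each list's median. The medians of the glucocorticoid-responsive list, 0.33 and 0.40, are the furthest from 0 on the higher side, and Slc25a25 and Sgk1 are the 2 lowest points of the signalling list in both panels.

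The arrays had the markers of liver, with all 8 measured hepatocyte markers above the olfactory receptor bound and their summed intensity between 75688 and 83223 in controls, 73522 and 80666 with naproxen and 77015 and 86468 with NO-naproxen. Immediate early genes are also active in non-parenchymal cells, and the 10 measured Kupffer cell and macrophage markers, all above the bound, were 10 of 10 and 9 of 10 above 0 with naproxen and NO-naproxen, with medians of 0.21 and 0.29 log2 units. Their summed intensity was 4228 to 6163 in controls, 4731 to 6606 with naproxen and 4887 to 7691 with NO-naproxen, and the part of these cells in the Egr1 and Klf6 values was not tested. Of the 6 neutrophil markers 1 lay above the bound, with sums of 187 to 412, 174 to 358 and 212 to 360 in the same order, and of the 2 B cell and 2 cholangiocyte markers 0 and 1 did. T and NK cell markers had 4 of 6 above it, and erythroid markers 2 of 2, with sums of 783 to 1087, 802 to 904 and 757 to 973. Endothelial and stellate cell lists had 2 of 2 and 5 of 5 above the bound, with medians of 0.34 and 0.17 with naproxen and 0.24 and 0.18 with NO-naproxen. Only 2 of 7 listed endothelial markers were measured, and they differed from each other. Both named after their values were seen, Clec4g had 0.54 with naproxen and 0.065 with NO-naproxen, and Tek 0.13 and 0.41.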

How the data were processed

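Array values were deposited by the authors as linear probe set intensity, 19418 per array on 12 arrays, and the submitters' processing notes name Affymetrix Expression Console 1.1.1 with build rn4. The sources used here name no summary or normalization method. Medians of arrays lay between 89.8 and 118, and 5.87% to 11.1% of values per array were under 16. Because values were linear, 16 was added before log2, which understates changes of dim probe sets. Groups and replicate numbers came from the titles. Probe sets were named from the platform annotation where it gave 1 symbol (13327, with 620 of several and 5471 of none), and 13232 matched RefSeq through Entrez.

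All arrays entered 1 fit of limma 3.58.1 (R 4.3.3, lmFit and eBayes, 2-sided), with Benjamini-Hochberg adjustment over all probe sets, a threshold of 0.05 and no covariate. Correlations within diets used all 13824 pairings within diets in Python 3.11.15 with NumPy 2.4.6, and figures matplotlib 3.10.9. Both steps were tested on simulated data. Genes named are the 10, the first 4 measured of each list in its listed order, and the 10 genes most like and 5 most unlike Dusp1. Further list genes are marked in the text as named after their values were seen. The members and lists were chosen with earlier results of these data known. Alternatives were the spread estimate, groups fitted, normalization, filters, array weights, the arrays' spread, added constant, the replicate block and arrays left out. Those of the 45 pairs were chosen after seeing the data. Arrays are 1 per rat, as separate biological replicates in the titles. Of 12 same-numbered pairs of arrays, 4 had deviations from the diet means correlated above 0.1 (range -0.38 to 0.48), and the labels do not say that a number is shared between diets.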

Additional observations from a re-analysis of the deposited data

How the results depend on the processing

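Over the 21 alternatives Dusp1 stayed below control, from -1.65 to -1.12 with naproxen and from -1.67 to -1.23 with NO-naproxen (log2 fold change). Several of the 21, such as another spread estimate, a filter or the replicate block, cannot change a fold change here and alter only its test. None of the 10 genes passed the adjusted threshold in any of them; limma's adjusted p for Dusp1 with NO-naproxen ran from 0.0675 to 1.00. The naproxen comparison chose Dusp1, so its range is a description. Several genes with values near 0 changed sign, and the cause was not tested. With naproxen, Fos was -0.057, Zfp36 -0.20 and Ier3 0.17 without the 2 narrowest arrays. With the arrays' interquartile range as covariate Jun was -0.052, Zfp36 -0.11 and Ier3 0.027. Zfp36 was -0.042 and Ier3 0.094 with array weights. Ier3 was 0.023 after quantile normalization, 0.11 after median centring and 0.0049 with 64 added. The count of genes higher by the criterion, 1, was 2 after quantile normalization and 3 after median centring. The shares of all probe sets that met the criterion in the alternative fits are not given.

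With NO-naproxen, Jun was -0.20 and Ier2 -0.039 with the covariate. Without the narrowest arrays Jun was -0.020 and Ier3 0.13. After median centring Ier3 was 0.024 and Zfp36 0.059. The count of higher genes, 2, was 1 with array weights, 1 with the covariate, 0 without the narrowest arrays and 1 at 2-fold or more. With array weights 2 probe sets passed the adjusted threshold. Between the drugs, Dusp1 was -0.067 after quantile normalization, -0.039 after centring and -0.016 with the covariate, and Dusp6 was -0.056 and -0.041 after the same 2 steps and -0.23 with weights.

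Of the correlations with Dusp1 within diets, Fos was -0.16 after quantile normalization and -0.17 without the narrowest arrays. Egr1 was -0.0016 with the covariate, -0.0059 without the narrowest arrays and -0.65 without the 2 arrays of farthest Dusp1, where Ier2 was -0.36. The count of pairs passing, 3, was 0 with the covariate and 0 after quantile normalization.

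With the replicate number as a block, the Dusp1 fold changes were -1.39 with naproxen, the comparison that chose it, and -1.38 with NO-naproxen (limma, adjusted p = 0.432), and no count of the 10 genes against control changed. In the replicate block fit 1 gene correlated with Dusp1 past the threshold, Jun with r = 0.95 (permutation within diets, adjusted p = 0.0111). Fos was -0.11 and Junb 0.13, and 0 pairs passed. That permutation shuffled the deviations within diets without keeping the blocks, so its p is not exact. The labels do not say that a number is shared between diets, so no conclusion is drawn from the Jun value.

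Leaving out 1 array at a time gave these ranges with naproxen: Dusp6 -0.078 to 0.37, Fos -0.058 to 0.066, Ier3 -0.29 to 0.12, Zfp36 -0.022 to 0.41, 1 to 2 higher genes, and 0 to 3 probe sets past the adjusted threshold, with 3 without control replicate 1 and 2 without control replicate 2. With NO-naproxen they were Dusp6 -0.073 to 0.39, Jun -0.088 to 0.37, Ier2 -0.12 to 0.33, Ier3 -0.30 to 0.085, Zfp36 -0.21 to 0.22, 1 to 3 higher genes, and 0 to 4 probe sets, with 4 without control replicate 2. Between the drugs they were Dusp1 -0.26 to 0.21, Dusp6 -0.19 to 0.17, Jun -0.35 to 0.10, Junb -0.36 to 0.10, Egr1 -0.56 to 0.40 and Ier3 -0.29 to 0.24. For r with Dusp1 they were Dusp6 -0.076 to 0.46, Fos -0.16 to 0.42, Junb -0.49 to 0.070 and Egr1 -0.49 to 0.18, and for pairs passing 0 to 3. The number of arrays limits the precision of all values.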
